A study of Mus musculus with 78 samples.

Results

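The genes described here are 40 genes of macroautophagy, mitophagy and the lysosome, chosen by symbol for what their proteins are known to do. All 40 matched 1 gene ID each among the 36904 IDs of the count table, and all 40 were among the 18218 genes that passed the filter on low counts. They were measured by bulk RNA-seq of the soleus, a hindlimb muscle rich in slow oxidative fibres, of C57Bl/6 mice of both sexes. The groups were 12 males of 28 months fed 2% CaAKG, the calcium salt of alpha-ketoglutarate, and 10 control males of 28 months, both of batch 2; 7 control females of 28 months of batch 2; and, in batch 1, control mice of 28 months (5 males, 6 females), 20 months (9 males, 6 females), 12 months (6 males, 7 female libraries) and 6 months (6 males, 4 females). The labels name no transgene or other allele. The oldest groups are written M28 in the titles, read here as 28 months. The 6- and 12-month mice came from one supplier and the 20-month mice from another, so age and supplier cannot be told apart between 6 and 20 months. The supplier of the 28-month mice, which were brought in as a separate group, is not given in these labels.

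Macroautophagy encloses cytoplasm in a double membrane, the autophagosome, which fuses with lysosomes whose hydrolases degrade the contents. A kinase complex around ULK1 starts the process, a lipid kinase complex around Beclin 1 marks the membrane, and a ubiquitin-like conjugation system attaches proteins of the ATG8 family (the LC3 and GABARAP proteins) to it, where they hold cargo receptors. Mitophagy applies the same machinery to mitochondria, marked by PINK1 or by receptors in their outer membrane, and in muscle these routes are known for turning over proteins, glycogen and mitochondria. Levels of mRNA do not measure the flux through these pathways.

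The libraries held 19460400 to 81637500 expected counts, with a median of 35209200. Markers of slow fibres were abundant in every library, their 8 genes summing to group medians of 26411 to 46414 counts per 1000000 counts of the library (CPM). The lowest sum was 9290 CPM, in library 4 of the 12-month females. In that library 46.5% of counts came from the mitochondrial genome, against 16 to 23% in the other libraries of its group. In 5 libraries the sex-linked genes went against the label (12-month females 1 and 4, 6-month female 3, 12-month male 3 and 6-month male 3). Another 9 held over 100 CPM of keratinocyte or neutrophil markers (12-month female 5, 28-month females 8, 10 and 12 of batch 1, 28-month male 4 of batch 2, and CaAKG males 6, 7, 8 and 10). Libraries 6 and 7 of the 12-month females carried the same animal tag and were summed, leaving 77 replicates. Nothing in the labels says more of how replicates were taken, so the p-values measure the spread between these samples. A level below is CPM after TMM scaling, and a gene was called where its Benjamini-Hochberg adjusted p from edgeR's quasi-likelihood test, over all 18218 genes, was under 0.05.

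Averaged over the 77 replicates and divided by transcript length, the members spanned 2.66 to 637 CPM per kb. Pink1, the kinase that accumulates on damaged mitochondria, was the highest, followed by the mitophagy receptor gene Bnip3 at 347 and the lysosomal protease gene Ctsd at 234 CPM per kb. The lysosomal membrane gene Lamp1 (227), the cargo receptor gene Sqstm1, which encodes p62 (195), and the ATG8 gene Map1lc3a (172) came next. The lowest were the nucleation genes Atg14 and Pik3r4 (2.82) and the conjugation enzyme gene Atg7 (2.85 CPM per kb). Within groups, the SD of log2(CPM + 1) was smallest for Wipi2 (0.124) and Becn1 (0.126) and largest for Gabarapl1 (0.357), Map1lc3a (0.336) and Gaa (0.307). Expected counts of Vcp, Map1lc3b, Sqstm1, Bnip3, Gabarapl1, Ctsb, Atg9a and Bnip3l were not whole in over 90% of libraries, so these genes share reads with other loci and their values are uncertain in that respect. The same limit applies to Rb1cc1 (84.6% of libraries), Ctsl (76.9%), Becn1 (67.9%) and Lamp1 (57.7%), and less often to Uvrag (25.6%) and Gabarapl2 (12.8%).

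More members were called in each sex at 20 against 6 months than in that sex's other age comparisons, though in females more were called higher at 28 against 20 months. At 20 against 6 months, 13 of 40 were higher and 15 lower in males, where 44.6% of all genes tested were called (22.6% higher, 22% lower). In females 9 were higher and 12 lower, where 36% of all genes were called (18.2% higher, 17.8% lower). At 28 against 6 months, within batch 1, 3 were higher and 6 lower in males (16.1% of all genes called, 6.76% higher and 9.38% lower) and 6 higher and 5 lower in females (18.9%, 9.91% higher and 9.04% lower). At 12 against 6 months, 2 were higher and 3 lower in males (9.85% of all genes called, 3.02% higher and 6.82% lower), and 0 were called in females (0.231%, 0.0384% higher and 0.192% lower), where 7 members had an unadjusted p under 0.05 and DESeq2 also called 0. The median log2 fold change of the members lay near that of all genes: -0.06 against 0.02 in males and -0.04 against 0.00 in females at 20 months, and -0.08 against 0.02 in males and 0.08 against 0.09 in females at 28 months. The calls at 28 against 6 months rested on few libraries. Leaving out 1 library at a time, Becn1, Gabarap, Gabarapl2 and Lamp1 of the 9 male calls, and Bnip3 and Gaa of the 11 female calls, passed in every such fit. Pik3c3, Nbr1 and Vcp passed in 3 of 11 such fits. Without the 3 of 6 28-month females that held keratinocyte or neutrophil transcripts, and the other libraries of that kind, 10 members were higher and 0 lower in females, so that none of the 5 lower calls (Gabarap, Bnip3, Pink1, Atg3 and Wipi1) passed. In a fit restricted to the 2 groups compared, 0 female calls passed. The share of all genes called is not given here for either fit, so these member counts have no background beside them. In bulk tissue, fewer cells of a type and less RNA per cell cannot be told apart.

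**Figure D1:**
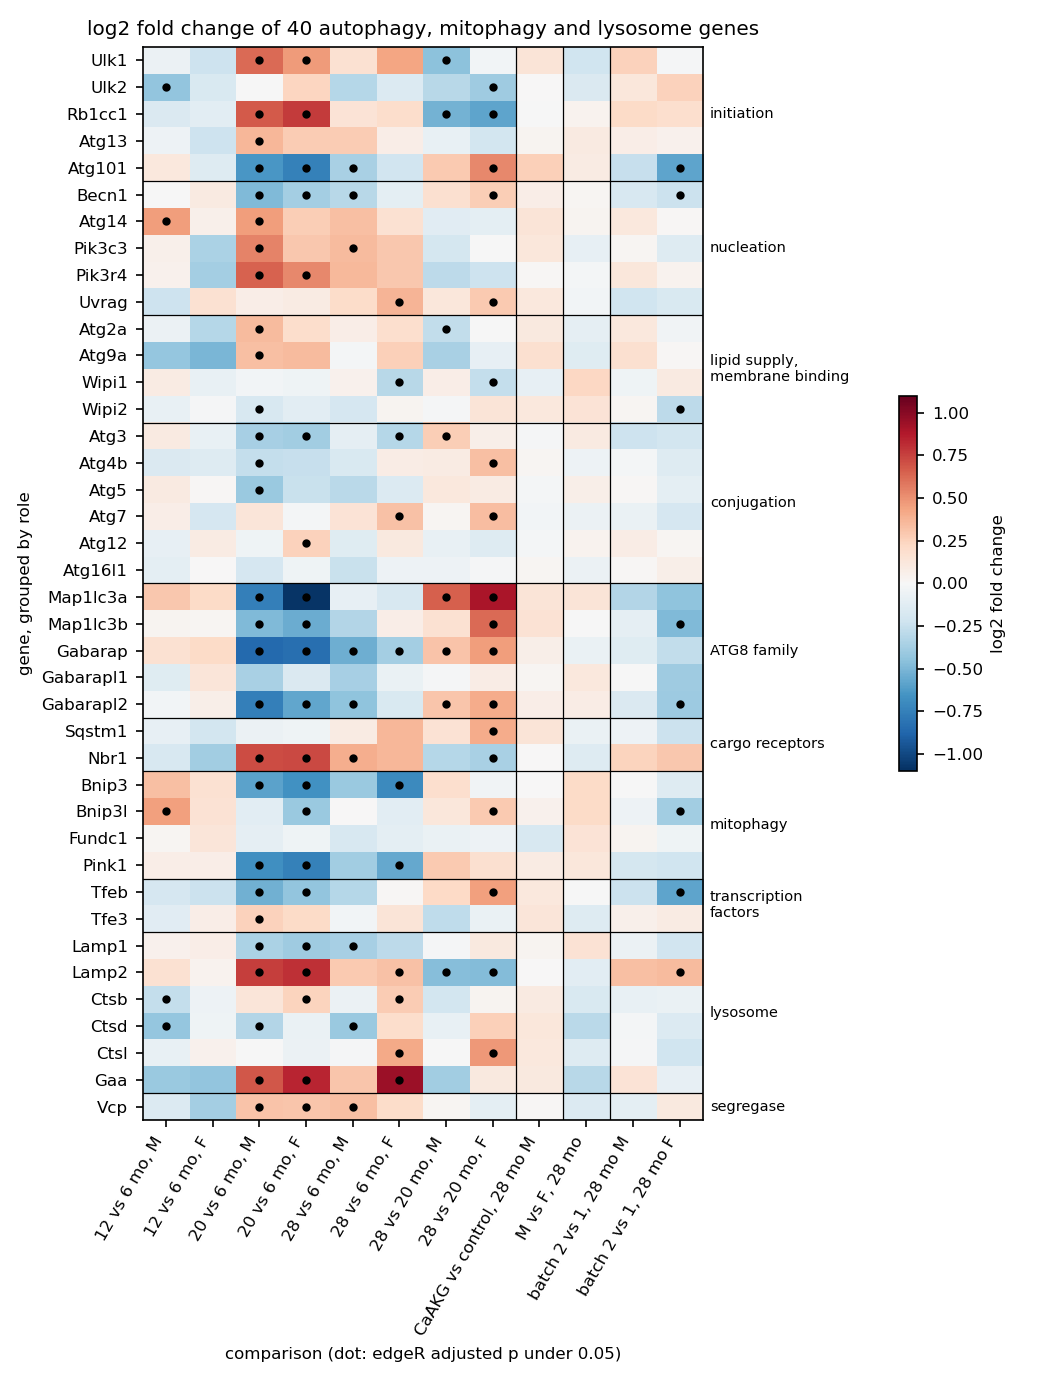
Log2 fold change of each of the 40 genes (down the page, by role) in 12 comparisons (across); red is higher and blue lower in the first-named group, and a dot marks an edgeR adjusted p under 0.05. The 20 against 6 month columns hold 28 dots in males and 21 in females, with the ATG8 genes and Pink1 blue and Lamp2, Gaa, Nbr1 and Rb1cc1 red in both sexes, while the CaAKG and male against female columns hold 0.

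Most members called in females at 20 months were also called in males. Of the calls, 18 were shared with the same sign, which is 64.3% of the male and 85.7% of the female calls, and 0 were opposite. Higher in both were Ulk1, Rb1cc1, Pik3r4, Nbr1, Lamp2, Gaa and Vcp, and lower in both were Atg101, Becn1, Atg3, Map1lc3a, Map1lc3b, Gabarap, Gabarapl2, Bnip3, Pink1, Tfeb and Lamp1. The male and female comparisons share no library, and the fold changes had the same sign for 37 of 40 members; across these genes Pearson's r was 0.952, and Spearman's rho was 0.963 for the members and 0.696 for all genes, as a description. At 28 against 6 months, Gabarap, lower, was the 1 member called in both sexes.

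Transcript length moved with these changes. At 20 against 6 months Spearman's rho between log2 fold change and the length of the principal transcript was 0.695 over the members in males and 0.689 in females, against 0.525 and 0.569 over all genes, as a description. In males the members called higher had a median length of 3729 bases and those called lower 2127 bases, and in females 4756 and 2143 bases. With offsets for length and GC content in the fit, the split of calls was 4 higher and 18 lower in males and 2 higher and 11 lower in females. Of all 18218 genes, that fit called 2087 higher and 3313 lower in males, and 1140 higher and 2012 lower in females. The calls that kept their sign and stayed past the threshold were 4 of 13 higher and 10 of 15 lower in males, and 2 of 9 higher and 5 of 12 lower in females. Both sexes kept Lamp2 and Gaa as higher, and Becn1, Gabarap, Map1lc3b and Pink1 as lower. Called lower in both sexes only with the offsets were Ulk2, Uvrag, Atg2a, Atg4b, Bnip3l, Ctsb and Ctsl. Whether length or GC content took part in the changes that were not kept was not tested.

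**Figure D2:**
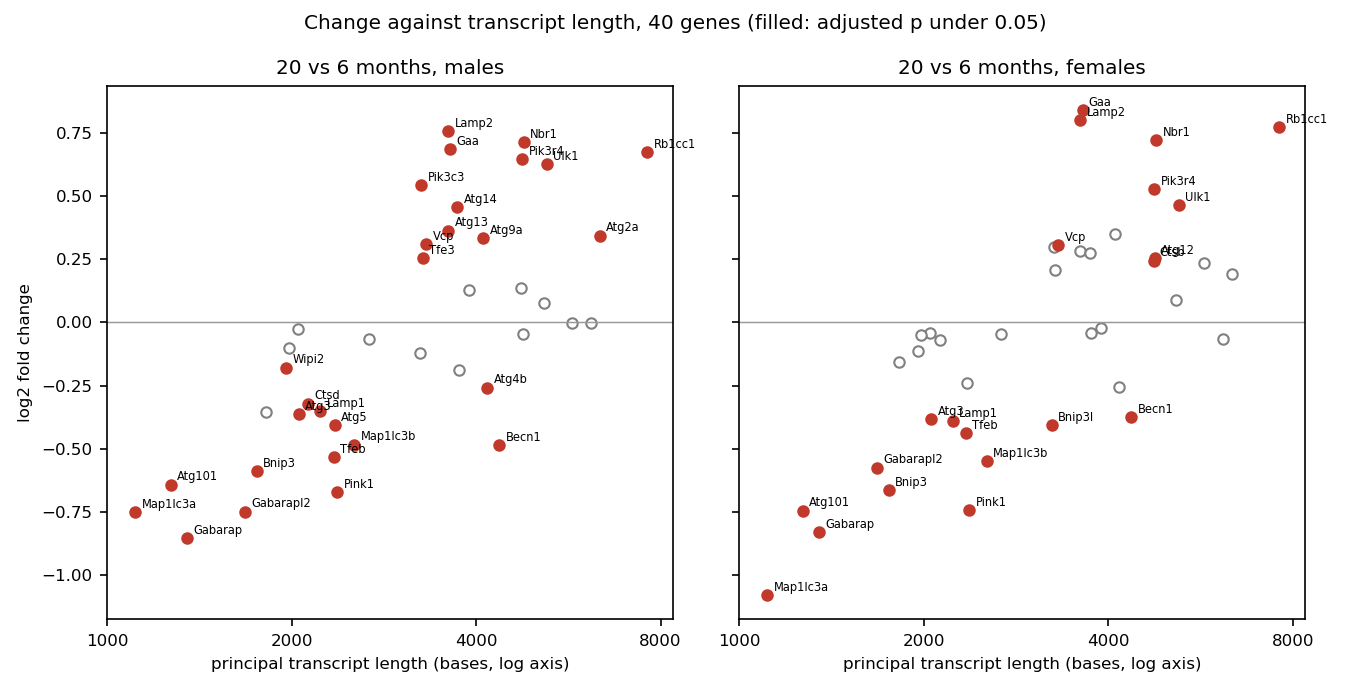
Log2 fold change at 20 against 6 months (vertical) against principal transcript length in bases (horizontal, log axis) for the 40 genes, males left and females right; filled points have an adjusted p under 0.05. Called genes with the shortest transcripts, such as Map1lc3a and Gabarap, lie below 0, and the longest called one, Rb1cc1, lies above it in both sexes.

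**Figure D3:**
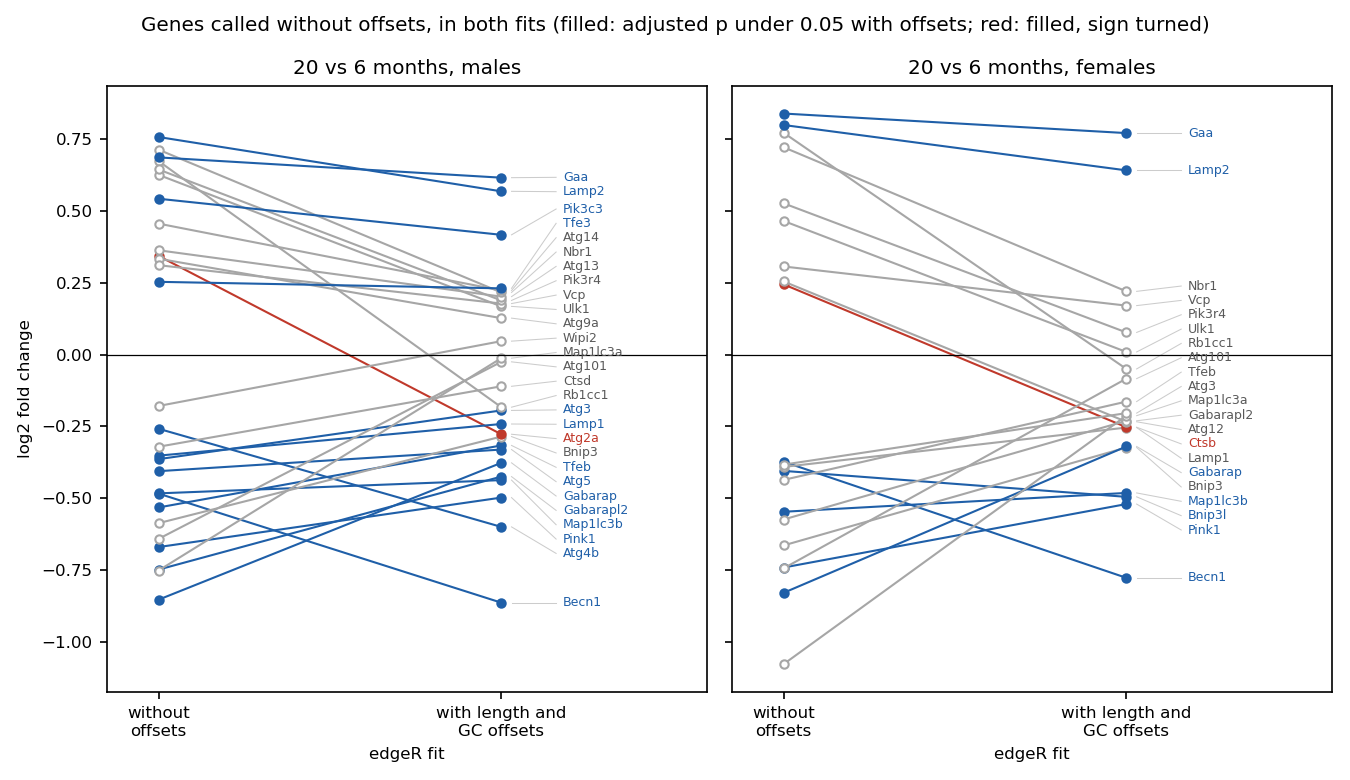
Log2 fold change at 20 against 6 months of each called gene in the edgeR fit without offsets (left in each panel) and with length and GC offsets (right), males left and females right; filled points on the right have an adjusted p under 0.05 with offsets and red marks a filled point whose sign turned. With offsets Gaa and Lamp2 are the highest and Becn1 the lowest of the called genes, and Map1lc3a and Atg101 move close to 0 in males.

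Among the 5 initiation genes, the kinase gene Ulk1 and the scaffold gene Rb1cc1, which encodes FIP200, rose at 20 months, and Atg101, a small stabilising subunit of the same complex, fell. Ulk1 averaged 74.2 ± 7.86 CPM in 20-month males (SD, n = 9) and 48 ± 12.3 CPM in 6-month males (SD, n = 6), a log2 fold change of 0.63, and that of females was 0.47. Rb1cc1 averaged 98.6 ± 9.81 CPM in 20-month females (SD, n = 6) and 57.7 ± 8.67 CPM in 6-month females (SD, n = 4); its log2 fold change was 0.77 in females and 0.67 in males, and -0.05 and -0.18 with the offsets. Atg101 averaged 10.7 ± 1.31 CPM in 20-month males and 16.8 ± 1.23 CPM in 6-month males, and it was also lower in 28-month males (log2 fold change -0.36, SE 0.12, adjusted p = 0.0284). With the offsets none of these calls remained: Ulk1 was 0.17 in males and 0.009 in females at 20 months, and Atg101 -0.025 and -0.084 at 20 months and -0.081 in 28-month males. Atg13, which links the kinase to the complex, rose in 20-month males (0.36) and did not pass in females (0.28, adjusted p = 0.133), and Ulk2, a relative of Ulk1, did not pass at 20 or 28 against 6 months. With the offsets Atg13 was 0.20 in 20-month males and no longer passed, and Ulk2 was lower in 20-month males (-0.68, adjusted p = 1.53e-05) and 20-month females (-0.44, adjusted p = 0.0397).

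Becn1, the gene of Beclin 1 and the organising subunit of the lipid kinase complex (ENSMUSG00000035086, chr11:101285952-101302286, mm10), fell at 20 months. It stood at 51.2 to 64.1 CPM with a median of 56.2 in 20-month males, against 64.8 to 82.1 CPM with a median of 80.5 in 6-month males, and at 47.2 to 56.5 CPM with a median of 55 in 20-month females, against 63.1, 70.6, 71.2 and 73.8 CPM in 6-month females. In both sexes every 20-month library lay below every 6-month library (log2 fold change -0.48 in males and -0.37 in females). At 28 months the males held 55.7, 62, 64.3, 66.5 and 67.9 CPM, which overlapped the 6-month males only at that group's lowest library (log2 fold change -0.31, SE 0.08, adjusted p = 0.00617). The 28-month females of batch 1 ranged over 56 to 74.1 CPM with a median of 63.6, and their difference from 6 months did not pass (adjusted p = 0.411). Becn1 has a long transcript and its fold change grew with the length and GC offsets, to -0.86 in males and -0.78 in females at 20 months. It overlaps Cntd1 on the opposite strand, and whether the counting used strand is not given in the sources used here.

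Without the offsets, other nucleation genes went the other way or did not pass. Pik3c3, the catalytic subunit VPS34, rose in males at 20 months (15.7 against 10.8 CPM; log2 fold change 0.54 ± 0.11 (SE)) and at 28 months (0.35 ± 0.12). The regulatory kinase gene Pik3r4 rose at 20 months in both sexes (0.65 ± 0.13 in males, 0.53 ± 0.16 in females), and Atg14, which directs the complex to autophagosomes, rose in males (0.46 ± 0.12). With the offsets Pik3c3 still passed in 20-month males (0.42) and not in 28-month males (0.28), and neither Pik3r4 (0.19 in males, 0.077 in females) nor Atg14 (0.22) passed. Uvrag, which forms the alternative complex at endosomes, rose in 28-month females (log2 fold change 0.38, SE 0.13, adjusted p = 0.027), a call lost on leaving out any 1 of 28-month females 9 and 12 and 6-month females 1, 2 and 4, and with the offsets (0.097). At 20 against 6 months Uvrag passed in neither sex without the offsets. With them it was called lower in males (-0.49, adjusted p = 0.0022) and in females (-0.49, adjusted p = 0.0195). Among the genes for lipid supply and membrane binding, Atg2a, a lipid transfer protein gene, and Atg9a, whose product carries membrane, rose in 20-month males (0.34 ± 0.09 and 0.33 ± 0.14), and the phosphoinositide binder gene Wipi2 fell slightly (-0.18 ± 0.07). Wipi1, of the same family, fell in 28-month females (log2 fold change -0.30, SE 0.11, adjusted p = 0.0441). With the offsets Atg2a turned to -0.28 and was called lower (adjusted p = 0.0252), Wipi2 turned to 0.047, and Atg9a (0.13) and Wipi1 (-0.24) no longer passed.

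Of the 6 conjugation genes, Atg3, which encodes the E2-like enzyme that passes ATG8 proteins to lipid (ENSMUSG00000022663, chr16:45158785-45188538), fell at 20 months in both sexes. Atg3 spanned 30.1 to 37.8 CPM with a median of 33.7 in 20-month males, against 40.4 to 49.9 CPM with a median of 43.3 in 6-month males. It spanned 31 to 43.1 CPM with a median of 37 in 28-month females of batch 1, against 39.3, 42.9, 51.5 and 52.5 CPM in 6-month females. The male groups did not overlap at 20 months (log2 fold change -0.36), and the 28-month females overlapped the lower 6-month libraries (log2 fold change -0.32, SE 0.10, adjusted p = 0.0191). In 28-month males it was at 37.7, 39.3, 40.3, 41.7 and 45.6 CPM and did not pass (-0.10, adjusted p = 0.561). Atg5 and Atg4b, an acceptor of the ATG12 protein and the protease that primes ATG8 proteins, fell in 20-month males (-0.41 ± 0.09 and -0.26 ± 0.09). Atg12 rose in 20-month females (0.25 ± 0.10), Atg7, the E1-like enzyme gene, rose in 28-month females (log2 fold change 0.32, SE 0.12, adjusted p = 0.0495), and Atg16l1 passed in no comparison without the offsets. With the offsets Atg12 turned to -0.23 in 20-month females, Atg7 was 0.14 in 28-month females, and Atg3 was -0.20 in 20-month and -0.16 in 28-month females, none past the threshold, while Atg3, Atg4b and Atg5 still passed in 20-month males (-0.19, -0.60 and -0.33). Only with them were Atg12 (-0.51, adjusted p = 1.17e-05) and Atg16l1 (-0.41, adjusted p = 0.000314) called lower in 20-month males. The same held for Atg4b in 20-month females (-0.60, adjusted p = 0.000818).

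In the ATG8 family 4 of 5 genes were called lower at 20 months in each sex and 0 higher, where 22% of all genes were called lower in males and 17.8% in females. With the length and GC offsets Gabarap and Map1lc3b passed in both sexes and Gabarapl2 in males. Map1lc3a averaged 134 ± 22.9 CPM in 20-month males and 225 ± 31.8 CPM in 6-month males, and 111.3 ± 7.17 CPM in 20-month females and 235 ± 93.8 CPM in 6-month females (SD, n = 9, 6, 6 and 4). Its log2 fold changes of -0.75 and -1.08 became -0.01 and -0.21 with the length and GC offsets and no longer passed. Map1lc3b fell by 0.48 in males and 0.55 in females on the log2 scale, and still by 0.44 and 0.48 with them. Gabarapl1, the most variable member within groups, did not pass (-0.36 ± 0.19 in males and -0.16 ± 0.23 in females).

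Gabarap (ENSMUSG00000018567, chr11:69991143-69994951) had the smallest p of the members at 28 months. In 20-month males it ranged over 100 to 142 CPM with a median of 114, in 28-month males of batch 1 it was 131, 139.5, 143, 148 and 157 CPM, and in 6-month males it ranged over 178 to 235 CPM with a median of 213. Both older male groups lay wholly below the 6-month males (log2 fold change -0.85, SE 0.10, adjusted p = 2.78e-11 at 20 months; log2 fold change -0.54, SE 0.11, adjusted p = 0.000783 at 28 months). In females it ranged over 112 to 128 CPM with a median of 122 at 20 months and 134 to 220.05 CPM with a median of 154 at 28 months, against 186, 198, 231 and 252 CPM at 6 months. The 20-month females did not overlap the 6-month ones (-0.83), while at 28 months the 2 groups overlapped (log2 fold change -0.37, SE 0.12, adjusted p = 0.021) and the call was lost on leaving out any 1 of 28-month females 8, 10 and 11 and 6-month females 2 and 3, and with the offsets (-0.13). Gabarapl2 (ENSMUSG00000031950, chr8:111940703-111953612) was at 62, 63.7, 64.8, 66.2 and 66.9 CPM in 28-month males, against 78.1 to 97.5 CPM with a median of 88.1 in 6-month males. These groups did not overlap (log2 fold change -0.44, SE 0.10, adjusted p = 0.00151), nor did those at 20 months (-0.75 in males and -0.57 in females, and -0.43 and -0.23 with the offsets, the female value not past the threshold). In 28-month females Gabarapl2 spread widely, over 56.4 to 102 CPM with a median of 66.5, and did not pass (-0.17, adjusted p = 0.254).

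**Figure D4:**
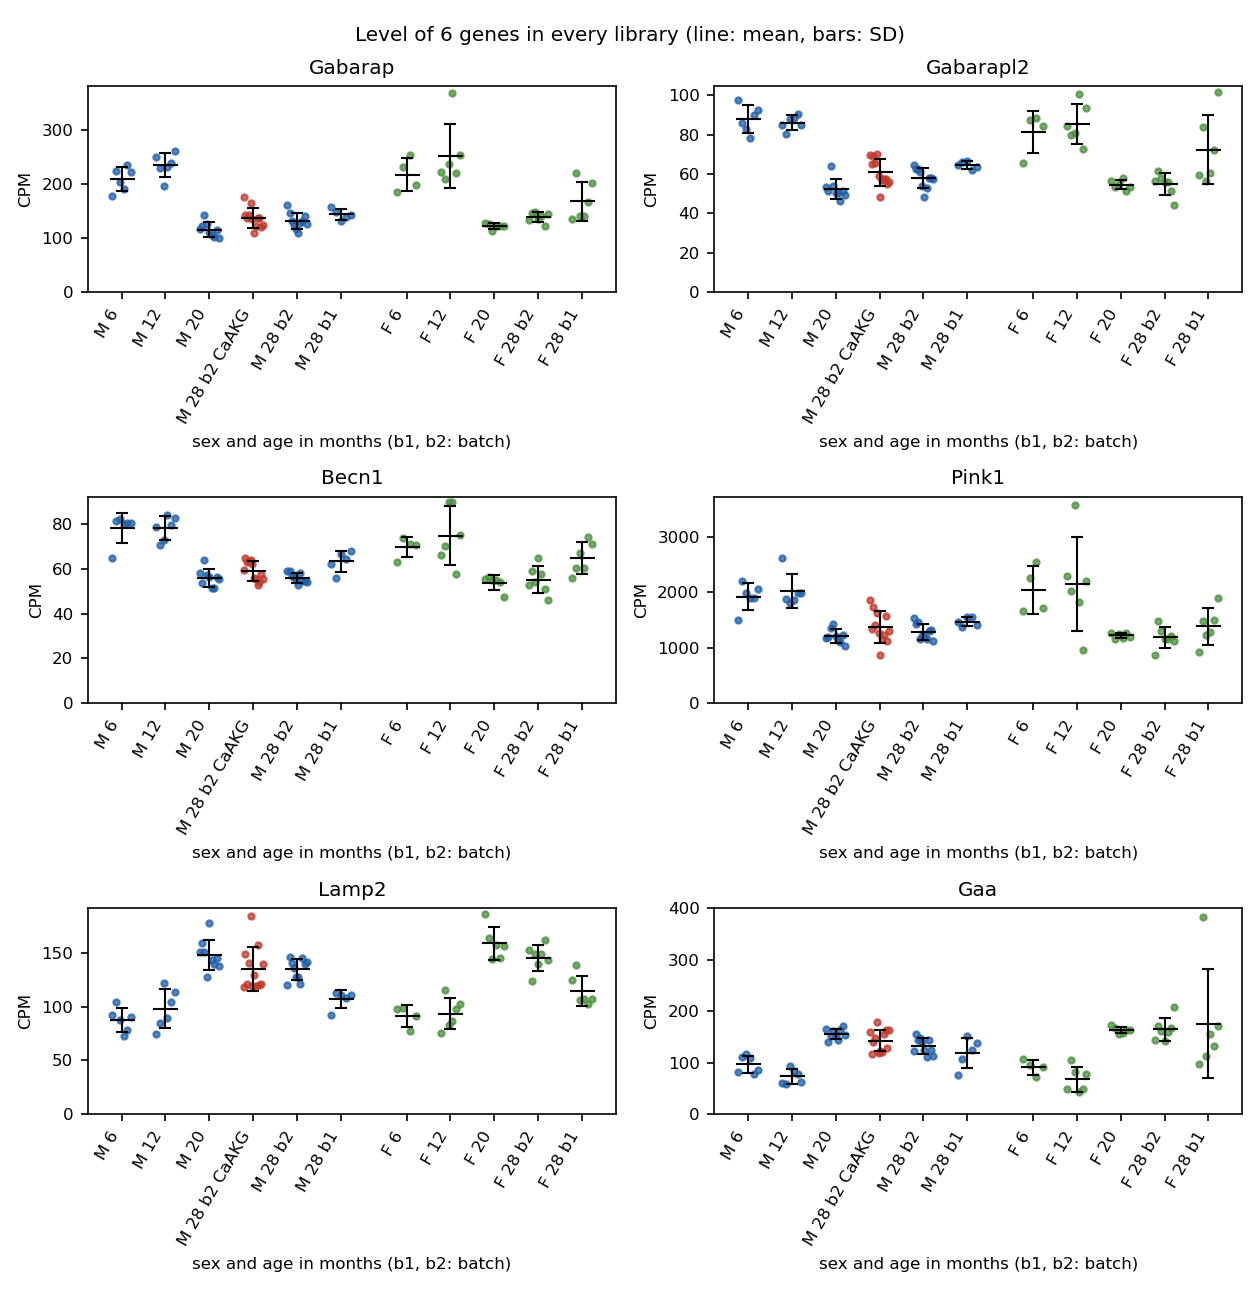
CPM of 6 genes (vertical, from 0) in every replicate of the 11 groups (horizontal; males left, females right; b1 and b2 are the batches), with the group mean as a line and the SD as bars. Gabarap, Gabarapl2, Becn1 and Pink1 are lower and Lamp2 and Gaa higher at 20 than at 6 months in both sexes, and 1 library of the 28-month females of batch 1 holds Gaa at 383 CPM.

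The cargo receptor gene Nbr1, whose product binds ubiquitinated cargo and ATG8 proteins (ENSMUSG00000017119, chr11:101552149-101581951), rose. It spanned 102 to 124.9 CPM with a median of 114 in 20-month males and 70.6, 90.1, 94.9, 97.6 and 103 CPM in 28-month males, against 61.3 to 81.8 CPM with a median of 68.1 in 6-month males. All 20-month males lay above all 6-month males (0.71), as did the females (0.72), while the 28-month males overlapped them (log2 fold change 0.40, SE 0.13, adjusted p = 0.0253). With the offsets Nbr1 kept its sign but did not pass (0.22 in males and 0.22 in females at 20 months, 0.17 in 28-month males). Sqstm1 did not pass at 20 or 28 against 6 months in either sex (0.36 ± 0.14, adjusted p = 0.0546, in 28-month females).

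Of the 4 mitophagy genes, Pink1 and Bnip3 fell. Pink1 (ENSMUSG00000028756, chr4:138313409-138326307) ranged over 1028 to 1433 CPM with a median of 1189.6 in 20-month males, against 1496 to 2199 CPM with a median of 1948 in 6-month males, with no overlap (log2 fold change -0.67, SE 0.14, adjusted p = 5.24e-05). In females it ranged over 1164 to 1269 CPM with a median of 1228 at 20 months and 917 to 1904 CPM with a median of 1384 at 28 months of batch 1, against 1662, 1714, 2255 and 2555 CPM at 6 months. The 20-month females lay below all 6-month ones (-0.74) and the 28-month ones overlapped them (log2 fold change -0.56, SE 0.17, adjusted p = 0.017). The 28-month males held 1377, 1403, 1469, 1559 and 1565 CPM and did not pass (-0.38, adjusted p = 0.103). Its fall at 20 months was -0.50 in males and -0.52 in females with the length and GC offsets, past the threshold in both. Bnip3, a receptor gene induced by hypoxia (ENSMUSG00000078566, chr7:138890836-138909519), ranged over 333 to 705 CPM with a median of 506 in 28-month females, against 617, 804, 918 and 1002 CPM in 6-month females. The ranges overlapped but the lower 28-month libraries lay well under all 6-month ones (log2 fold change -0.70, SE 0.18, adjusted p = 0.00453), and this call held on leaving out each library in turn but was -0.42 (adjusted p = 0.157) without the libraries holding skin or marrow transcripts. At 20 months Bnip3 fell in both sexes (-0.59 and -0.66) and did not pass with the offsets, nor did it in 28-month females (-0.40). Its relative Bnip3l fell in 20-month females (-0.41 ± 0.09) but not past the threshold in males (-0.12 ± 0.08), and Fundc1, another outer membrane receptor gene, passed in no comparison. With the offsets Bnip3l was called lower at 20 months in females (-0.50, adjusted p = 1.2e-05) and in males (-0.21, adjusted p = 0.019).

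Tfeb and Tfe3 encode transcription factors that bind E-boxes in promoters of lysosomal and autophagy genes. Tfeb fell at 20 months, averaging 39.4 ± 4.69 CPM in 20-month males and 56.9 ± 5.39 CPM in 6-month males (SD, n = 9 and 6), with log2 fold changes of -0.53 in males and -0.44 in females, and -0.32 and -0.16 with the offsets, the female value not past the threshold. Tfe3 rose in 20-month males (0.25 ± 0.10). The promoters that RefSeq gives for 32 of the 40 members (GRCm38.p6, 250 bases before to 50 after the start) were searched for the E-box core CACGTG, which is its own reverse complement, so both strands are covered. It was present in 9 members (28.1%): Atg14, Atg3, Atg5, Atg7, Bnip3, Ctsd, Ctsl, Gaa and Lamp1. Among all 27025 genes with a promoter in that table it was present in 8.09%. Not every such start is the annotated start of the gene. The window of Atg7 (chr6:114670846-114671145) lay inside the gene, whose annotated start is 114643097. Those of Atg14 and Ctsl also lay wholly inside their genes. The longer palindrome known as the CLEAR element, which holds the same core, was in 0 of the 32 members and in 0.370% of genes, and the forkhead letters GTAAACA or TGTTTAC were in 0 of the 32 and 4.05% of genes. A match of letters is not evidence of binding. Of the 9, Gaa rose and Atg3, Bnip3 and Lamp1 fell in both sexes at 20 months. The promoters printed belong to lysosomal members that are described next and differ in direction: Lamp1 (chr8:13158911-13159210 on the plus strand), Ctsd (chr7:142387778-142388077 on the minus strand) and Gaa (chr11:119267713-119268012 on the plus strand), 5′ to 3′, with the E-box core in capitals.
Lamp1: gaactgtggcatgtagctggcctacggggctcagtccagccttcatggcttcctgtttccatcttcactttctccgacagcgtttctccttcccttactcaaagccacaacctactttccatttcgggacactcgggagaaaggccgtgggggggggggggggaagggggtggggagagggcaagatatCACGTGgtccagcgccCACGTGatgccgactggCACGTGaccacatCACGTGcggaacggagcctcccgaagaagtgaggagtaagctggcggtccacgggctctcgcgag
Ctsd: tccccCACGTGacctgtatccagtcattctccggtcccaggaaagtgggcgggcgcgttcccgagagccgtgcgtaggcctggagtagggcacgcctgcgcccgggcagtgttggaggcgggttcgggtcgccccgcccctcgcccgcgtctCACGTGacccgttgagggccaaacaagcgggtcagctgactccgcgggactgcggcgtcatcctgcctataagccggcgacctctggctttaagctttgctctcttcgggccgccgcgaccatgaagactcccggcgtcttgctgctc
Gaa: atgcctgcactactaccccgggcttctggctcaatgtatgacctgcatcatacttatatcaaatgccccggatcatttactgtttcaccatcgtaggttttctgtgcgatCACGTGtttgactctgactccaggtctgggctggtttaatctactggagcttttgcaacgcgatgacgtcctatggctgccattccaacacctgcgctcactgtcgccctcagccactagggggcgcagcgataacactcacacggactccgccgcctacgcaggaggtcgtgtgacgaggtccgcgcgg
Lamp1 held 4 copies, beginning 61, 45, 28 and 15 bases before the start, Ctsd 2 copies at 245 and 98 bases, and Gaa 1 copy at 140 bases.

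The lysosomal members split. Lamp1, a major glycoprotein of the lysosomal membrane (ENSMUSG00000031447, chr8:13159161-13175338), ranged over 471 to 502 CPM with a median of 485 in 20-month males and was 441, 479, 488, 497 and 500.3 CPM in 28-month males, against 533 to 738 CPM with a median of 631 in 6-month males. Both older groups lay wholly below the 6-month males (-0.35 at 20 months; log2 fold change -0.37, SE 0.10, adjusted p = 0.0102 at 28 months). Females fell at 20 months (-0.39; -0.25 and not past the threshold with the offsets) and did not pass at 28 months (-0.28, adjusted p = 0.0597). Lamp2, whose product serves membrane fusion and chaperone-mediated autophagy, did the opposite: it averaged 148 ± 14.3 CPM in 20-month males and 87.4 ± 11.1 CPM in 6-month males, and 159 ± 15.4 CPM in 20-month females and 91.1 ± 9.9 CPM in 6-month females. Its log2 fold changes were 0.76 and 0.80, and 0.57 and 0.64 with the offsets, all past the threshold. At 28 months it was 0.29 ± 0.11 in males (adjusted p = 0.0502) and 0.33 ± 0.11 in females (adjusted p = 0.0355).

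Gaa encodes acid alpha-glucosidase, which breaks down glycogen in lysosomes (ENSMUSG00000025579, chr11:119267887-119285454). It ranged over 139.7 to 170.5 CPM with a median of 153 in 20-month males, against 77.7 to 116 CPM with a median of 97.1 in 6-month males, and over 156 to 173 CPM with a median of 163 in 20-month females, against 71.8, 91.1, 95.6 and 107 CPM in 6-month females. Neither pair overlapped (log2 fold change 0.69, SE 0.17, adjusted p = 0.000418 in males; log2 fold change 0.84, SE 0.21, adjusted p = 0.000644 in females). In 28-month females of batch 1 it ranged over 96.8 to 383 CPM with a median of 145, and 1 of the 6 libraries, number 9, stood far above the rest. The fold change of these females (log2 fold change 0.94, SE 0.21, adjusted p = 0.00116) was 0.54 without that library, still past the threshold. That library also had the highest Ctsd of its group and 51120 CPM of fast fibre markers, against 20637 to 29174 CPM in the other 5. The 28-month males, at 76.5, 107, 124.98, 138 and 151 CPM, did not pass (0.30, adjusted p = 0.303).

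The cathepsin genes, which encode lysosomal proteases, differed from each other. Ctsd (ENSMUSG00000007891, chr7:142375911-142388038) was at 372, 388, 467, 468 and 531 CPM in 28-month males and 428 to 530.1 CPM with a median of 463 in 20-month males, against 499.6 to 668 CPM with a median of 589 in 6-month males. It was lower in the older males with some overlap (log2 fold change -0.40, SE 0.13, adjusted p = 0.0256 at 28 months; -0.32 at 20 months), and lower also at 12 months without overlap (log2 fold change -0.43, SE 0.13, adjusted p = 0.0189). The 12-month call did not pass in every fit that left out 1 library. With the offsets the male values were -0.33 at 28 months and -0.11 at 20 months and no longer passed. In females it did not pass at 20 or 28 months (-0.07 and 0.19). Ctsl (ENSMUSG00000021477, chr13:64359337-64370890) ranged over 115 to 183 CPM with a median of 167 in 28-month females, against 108, 109, 122.9 and 138 CPM in 6-month females. Most 28-month females lay above the 6-month ones, though the ranges overlapped (log2 fold change 0.41, SE 0.12, adjusted p = 0.0104), and the 28-month males did not pass (-0.01, adjusted p = 0.976). Ctsb rose in 28-month females (0.28 ± 0.09) and 20-month females (0.24 ± 0.09). With the offsets the 20-month female value turned to -0.25 and was called lower (adjusted p = 0.0322). Ctsb was also called lower with them in 20-month males (-0.35, adjusted p = 6.85e-05). Ctsl did not pass at 20 against 6 months without the offsets (-0.004 in males and -0.06 in females). With them it was called lower in 20-month males (-0.71, adjusted p = 1.12e-06) and females (-0.79, adjusted p = 1.81e-05). In 28-month females the offsets left Ctsl at 0.19 (adjusted p = 0.425) and Ctsb at 0.048 (adjusted p = 0.769), neither past the threshold. The difference between the sexes in the 28 against 6 month change, male minus female, was -0.60 ± 0.19 for Ctsd (adjusted p = 0.144), -0.42 ± 0.16 for Ctsl and -0.34 ± 0.13 for Ctsb, and 0 of the 40 members passed this test (0.329% of all genes called, 0.11% higher and 0.22% lower), with 6 at an unadjusted p under 0.05 and 1 called by DESeq2. Macrophages are rich in cathepsins, and 12 macrophage markers summed to 74.5 to 509 CPM in 28-month females of batch 1 and 49.4 to 209.7 CPM in 6-month females, and their part in these values was not tested.

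Vcp encodes the segregase p97, which extracts ubiquitinated proteins and takes part in autophagosome and lysosome maintenance (ENSMUSG00000028452, chr4:42979963-43000507). It was at 365, 448, 508, 512 and 538 CPM in 28-month males and 393 to 556 CPM with a median of 455 in 20-month males, against 341 to 467 CPM with a median of 363 in 6-month males. Most older libraries were above the 6-month median, and the groups overlapped (log2 fold change 0.33, SE 0.11, adjusted p = 0.023 at 28 months; 0.31 at 20 months). Females rose at 20 months (log2 fold change 0.31, SE 0.12, adjusted p = 0.0295) and did not pass at 28 months (adjusted p = 0.212). With the offsets no Vcp call remained (0.26 in 28-month males, 0.18 in 20-month males and 0.17 in 20-month females).

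Between 20 and 28 months within batch 1, 3 of the 5 ATG8 genes were higher in males and 4 in females. In males 4 members were higher and 4 lower (17% of all genes called, 8.25% higher and 8.78% lower), and in females 13 higher and 5 lower (29.9%, 17.3% higher and 12.6% lower). Higher in both sexes were Map1lc3a (0.66 ± 0.18 in males, 0.90 ± 0.19 in females), Gabarap (0.32 and 0.46) and Gabarapl2 (0.31 and 0.41). Lower in both were Rb1cc1 (-0.52 and -0.58) and Lamp2 (-0.47 and -0.47). Higher in females were also Map1lc3b (0.62), Atg101 (0.53), Ctsl (0.48), Tfeb (0.45), Sqstm1 (0.41), Atg7, Atg4b, Uvrag, Bnip3l and Becn1. Females were lower in Ulk2 (-0.39), Nbr1 (-0.35) and Wipi1 (-0.26), and males were higher in Atg3 (0.27) and lower in Ulk1 (-0.45) and Atg2a (-0.27). With the offsets 0 of the 4 higher and 1 of the 4 lower calls in males (Lamp2) and 8 of the 13 higher and 1 of the 5 lower calls in females (Wipi1) remained. Of the ATG8 genes, Gabarapl2 and Map1lc3b in females were among them. Of all 18218 genes, the fit with offsets called 416 higher and 169 lower in males, and 2057 higher and 785 lower in females. All genes thus also had more higher than lower calls in that fit. Markers moved in the same comparison: in females all 14 neutrophil and marrow, all 12 keratinocyte and 5 of 8 fast fibre markers were called higher, and 8 of 10 endothelial, 6 of 8 smooth muscle and pericyte and 6 of 8 tendon markers lower. In males 5 of 8 slow fibre markers were higher and 7 of 10 endothelial markers lower. The part of these cells in the change from 20 months was not tested. This comparison shares its 20-month libraries with that of 20 against 6 months, so a gene far out in those libraries moves in opposite directions in the 2 comparisons.

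At 12 against 6 months in males, Bnip3l was higher (log2 fold change 0.45, SE 0.08, adjusted p = 0.00037) and passed on leaving out each library in turn, the only 1 of the 5 calls to do so. Atg14 was also higher (0.46 ± 0.13), and Ulk2 (-0.43 ± 0.14) and Ctsb (-0.26 ± 0.08) were lower, beside Ctsd. Ulk2 (-0.34) and Ctsb (-0.15) did not pass with the offsets. In females Ulk2 was at -0.17 ± 0.15, Ctsb at -0.05 ± 0.09 and Ctsd at -0.04 ± 0.14, none past the threshold.

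CaAKG left no member past the threshold. In 12 CaAKG males against 10 control males of 28 months, 0 of 40 members were called, where 12 genes in all were (0.0659%), every one higher and 7 of them among the 14 neutrophil and marrow markers. The members' log2 fold changes ran from -0.18 for Fundc1 to 0.26 for Atg101, 33 of 40 were above 0, and their median was 0.07 against 0.01 for all genes. Every member's 95% confidence interval lay between -0.34 and 0.43 on the log2 scale. Of the members, 3 had an unadjusted p under 0.05: Atg101, at 13.2 ± 1.57 CPM with CaAKG and 11 ± 0.842 CPM in controls (SD, n = 12 and 10; adjusted p = 0.35), Fundc1 (adjusted p = 0.686) and Wipi2 (0.12, adjusted p = 0.716). DESeq2 and limma-voom also called 0. Gabarap, for example, ranged over 108 to 176 CPM with a median of 137 with CaAKG and 109 to 162 CPM with a median of 129 in controls, and Gaa over 116 to 178 CPM with a median of 144 and 112 to 155 CPM with a median of 132. In both genes the ranges overlapped over most of their width.

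**Figure D5:**
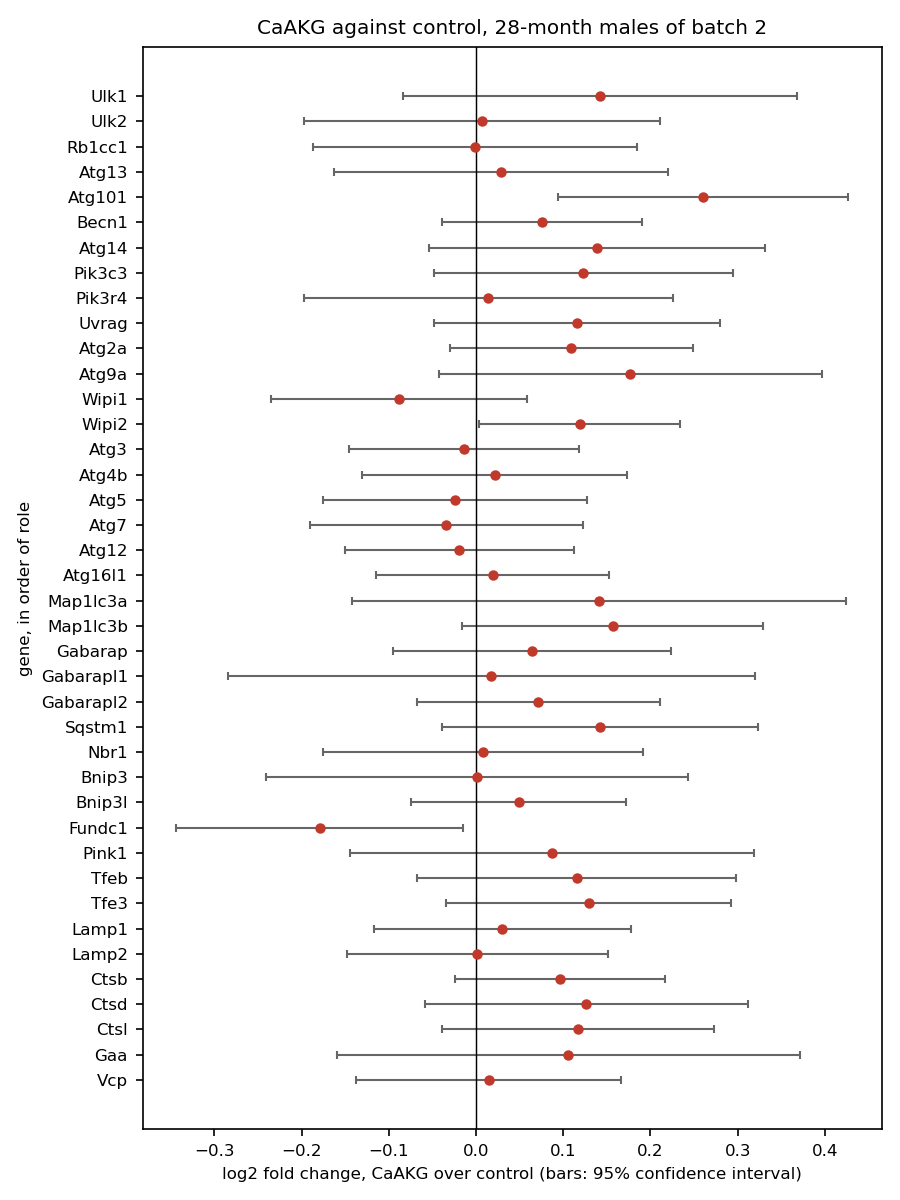
Log2 fold change of CaAKG over control in 28-month males of batch 2 (horizontal) for the 40 genes in order of role (down the page), with 95% confidence intervals as bars. All intervals lie between -0.34 and 0.43; those of Atg101, Wipi2 and Fundc1 leave out 0 before adjustment over all genes, and no adjusted p is under 0.05.

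Control males and females of 28 months in batch 2 differed in 0 of 40 members (1.3% of all genes called, 0.917% higher and 0.379% lower). The male over female log2 fold changes ran from -0.31 to 0.23, 6 members had an unadjusted p under 0.05, and DESeq2 also called 0. The smallest adjusted p was that of Bnip3l (log2 fold change 0.21, SE 0.07, adjusted p = 0.134), followed by Ctsd (-0.30 ± 0.11).

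The 2 batches of 28-month controls were not alike in females. Batch 2 against batch 1 had 1 member higher and 7 lower in females (19.8% of all genes called, 6.75% higher and 13% lower) and 0 called in males (1.02%, 0.818% higher and 0.198% lower), where 7 members had an unadjusted p under 0.05 and DESeq2 called 2. In females Tfeb averaged 38.9 ± 5.66 CPM in batch 2 and 58.3 ± 17.6 CPM in batch 1 (SD, n = 7 and 6; log2 fold change -0.58), and Atg101 10.3 ± 1.95 CPM in batch 2 and 15.4 ± 2.5 CPM in batch 1 (-0.58). Map1lc3b (-0.49), Gabarapl2 (-0.40), Bnip3l (-0.39), Wipi2 (-0.28) and Becn1 (-0.24) were also lower, and Lamp2 was higher (0.35). With the offsets Atg101 (-0.24) and Wipi2 (-0.097) no longer passed. The same age and sex thus gave different levels of these 8 members in the 2 batches. They were 20% of the 40 members, near the 19.8% of all genes called, so the difference was not particular to the members. Of the 6 batch 1 females, 3 carried keratinocyte or neutrophil transcripts. Without those and the other libraries in doubt, 1 member was higher and 16 lower, in a fit whose calls over all genes are not given here. In the same comparison 6 of 10 endothelial markers were higher and 6 of 8 fast fibre markers lower in batch 2, and their part was not tested.

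Other genes of these pathways were counted in 5 lists, whose genes all passed the filter. At 20 against 6 months 49 were higher and 33 lower in males (43.4% and 29.2% of these genes, against 22.6% and 22% of all genes), and 45 higher and 25 lower in females (39.8% and 22.1%, against 18.2% and 17.8%). With the length and GC offsets these counts were 24 higher and 26 lower in males and 17 and 18 in females. The same fit called 2087 higher and 3313 lower of all 18218 genes in males, and 1140 and 2012 in females. Of 15 subunits and partners of the vacuolar ATPase, the proton pump that acidifies lysosomes, 4 were higher and 10 lower in males and 4 higher and 8 lower in females, with a median log2 fold change of -0.39 and -0.27. Of 19 nutrient sensing genes, 11 were higher and 2 lower in males and 12 and 2 in females. Other lysosomal proteins (35 genes) gave 14 higher and 8 lower in males and 14 and 6 in females, other autophagy machinery (27 genes) 13 and 9 in males and 10 and 7 in females, and other receptors and mitophagy genes (17 genes) 7 and 4 in males and 5 and 2 in females. The smallest p-values belonged to Phb2, an inner mitochondrial membrane protein that binds LC3 (-1.11 ± 0.10 in males, -1.08 ± 0.12 in females), Wdfy3, a scaffold for clearing aggregates (1.57 ± 0.14 and 1.55 ± 0.18), and the ATPase subunit gene Atp6v0b (-1.27 ± 0.14 and -1.43 ± 0.17). With the offsets these passed at smaller size, Phb2 at -0.52 and -0.46, Wdfy3 at 0.48 and 0.49, and Atp6v0b at -0.55 and -0.66.

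At 28 against 6 months the same genes gave 14 higher and 15 lower in males (12.4% and 13.3%, against 6.76% and 9.38% of all genes) and 24 higher and 11 lower in females (21.2% and 9.73%, against 9.91% and 9.04%), where 10 of the 35 other lysosomal genes were higher and 1 lower. In males the smallest p-values were those of Ddit4, an inhibitor of mTORC1 (2.40 ± 0.42), Ambra1, a partner of Beclin 1 (0.57 ± 0.11), and the lysosomal lipase gene Lipa (0.82 ± 0.17), all higher. In females Npc1, which exports cholesterol from lysosomes (1.06 ± 0.19), and the catalytic pump subunit gene Atp6v1a (0.82 ± 0.17) were among those with the smallest p-values, both higher. At 28 against 20 months 13 were higher and 23 lower in males (11.5% and 20.4%, against 8.25% and 8.78% of all genes), led by Wdfy3 (-0.98 ± 0.15), Phb2 (0.61 ± 0.11) and Epg5 (-0.83 ± 0.15), and 22 higher and 20 lower in females (19.5% and 17.7%, against 17.3% and 12.6%), led by Wdfy3 (-1.03 ± 0.15), Fnip1 (-1.18 ± 0.22) and Atp6v0c (0.50 ± 0.09). At 12 against 6 months 1 was higher and 12 lower in males (0.885% and 10.6%, against 3.02% and 6.82% of all genes), with Tsc1 (-0.81 ± 0.18), Rragd (-0.83 ± 0.21) and Mul1 (-0.41 ± 0.10) first, and Plekhm1 was the 1 gene called in females (-0.48 ± 0.11). Of the genes named here, Ambra1, Epg5, Fnip1, Atp6v0c, Mul1 and Plekhm1 did not pass with the offsets. CaAKG gave 0 calls among these genes. Between the sexes in batch 2, Optn (0.42 ± 0.10) and Atg4a (0.37 ± 0.09) were among 4 higher in males (3.54%, against 0.917% of all genes) and Ctsz (-0.61 ± 0.12) the 1 lower, and Optn and Atg4a did not pass with the offsets. Between batches, Ddit4 was lower and Wdfy3 higher in batch 2 in both sexes, and with the offsets only Ddit4 in females of these passed. In females Ctsk was lower (-2.77 ± 0.50), a value that was 0.24 without the libraries holding skin or marrow transcripts.

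Markers of other cell types moved with the age comparisons. All 10 endothelial markers were called higher at 20 against 6 months in both sexes, their sum having a median of 1024 CPM in 20-month males and 219 CPM in 6-month males, and 965 CPM in 20-month females and 291 CPM in 6-month females. At 28 against 6 months all 10 were higher in males (637 against 219 CPM) and 3 in females (657 against 291 CPM). Of the 8 smooth muscle and pericyte markers, 8 were higher in males and 6 in females at 20 months. Of the 8 slow fibre markers 2 were higher and 6 lower in males and 2 higher and 3 lower in females at 20 months, and of the 8 fast fibre markers 1 was higher and 5 lower in males and 1 higher and 4 lower in females. The median slow fibre sum was 27249 CPM at 20 and 27171 CPM at 6 months in males, and 46414 and 39782 CPM in females. That of fast fibres was 26646 and 25086 CPM in males, and 19167 and 21371 CPM in females. Of the 8 adipocyte markers 6 were higher in males and 0 in females at 20 months, and of the 8 tendon markers 6 were higher and 1 lower in males and 2 and 1 in females. In 28-month females 2 of 8 fibroblast and 4 of 12 keratinocyte markers were higher. In the same females all 14 neutrophil and marrow markers were called higher, their sum ranging from 2.88 to 1609 CPM against 0.771 to 2.72 CPM at 6 months, where 3 of the 14 were at 0 in every library. The part of these cells in the changes of the 40 members was not tested.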

How the data were processed

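Soleus RNA was sequenced as paired 150-base reads on an Illumina NovaSeq, per the labels' protocols. The deposited table holds expected counts per gene from RSEM 1.3.3 after STAR 2.7.11b, with FastQC and the mm10 build, per the submitters' processing notes; whether strand was used is not given in the sources used here. Of its columns, 55 match no sample described here and were not used. Expected counts (8.99% of values not whole) were rounded. edgeR 4.0.16 (R 4.3.3) fitted 11 groups in 1 model by quasi-likelihood with TMM scaling on genes passing a minimum count of 10 and total of 15. Log2 fold changes carry the model's SE and 95% intervals, and intervals cover the spread between replicates. A CPM is a TMM-scaled count per 1000000. Marker sums and totals use unscaled CPM.

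The 2 libraries with 1 animal tag were summed before fitting. No 2 libraries of a group had counts within sampling noise (lowest chi-square per gene 18.4 over 265 pairs). Replicate numbers did not pair the groups: the correlations of same-numbered libraries' deviations ran from -0.27 to 0.31 and were not all above 0.1 in any comparison.

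The members and lists were chosen with earlier results of these data known. Per-library values are given for the 12 members with the smallest p among those called for CaAKG or at 28 against 6 months, and up to 3 other pathway genes per comparison, by smallest p; others are described by role. The values of 1 such pathway gene are not reported here. Transcript length and GC content came from the longest principal transcript of GENCODE M21, known for 97.5% of tested genes. They entered as offsets fitted per library with splines. DESeq2 1.42.0, limma-voom 3.58.1 with quality weights, other scalings and filters, and leaving out libraries were alternatives. Leaving out the 14 libraries in doubt together was chosen after seeing the data. The fits were tested on simulated data.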

Additional observations from a re-analysis of the deposited data

Results flagged for a closer look

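Each of the 12 values below stood apart from the rest of its group by Dixon's test at the 95% level, over 120 groups of 4 to 10 libraries (12 members). Chance alone gives about 1 in 20 groups. Gabarap was at 367 CPM in library 4 of the 12-month females, against 208 to 253 CPM in the other 5, a library whose sex-linked genes went against its label. That library also had the lowest slow fibre sum, and 46.5% of its counts came from the mitochondrial genome. Gaa was at 383 CPM in library 9 of the 28-month females of batch 1, against 96.8 to 172 CPM in the other 5. Ctsd in the same library was at 962 CPM in library 9 of the 28-month females of batch 1, against 449 to 639 CPM in the other 5. Gaa was also high at 209 CPM in library 7 of the 28-month females of batch 2, against 142 to 170.3 CPM in the other 6. In that library Atg3 was low, at 23.1 CPM in library 7 of the 28-month females of batch 2, against 30.8 to 36.7 CPM in the other 6. Gabarapl2 was at 64.2 CPM in library 3 of the 20-month males, against 46.2 to 53.8 CPM in the other 8. Pink1 was at 2628 CPM in library 1 of the 12-month males, against 1804 to 1985 CPM in the other 5. Vcp was at 467 CPM in library 3 of the 6-month males, against 341 to 379 CPM in the other 5, another library against its sex label. Nbr1 was at 96.4 CPM in library 2 of the 12-month females, against 43.8 to 59.1 CPM in the other 5. Low values were those of Becn1 at 47.2 CPM in library 6 of the 20-month females, against 54 to 56.5 CPM in the other 5, Becn1 at 64.8 CPM in library 1 of the 6-month males, against 80.2 to 82.1 CPM in the other 5, and Ctsl at 99.6 CPM in library 3 of the 20-month females, against 114 to 122 CPM in the other 5. The cause of these values was not tested.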

How the results depend on the processing

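Counts of called members are given as total (higher and lower). The number of all genes called also changed with the setting and is given below for some settings only. A member count that moves is therefore not by itself a result about the members. At 20 against 6 months the count of 28 in males was within 1.5 times in every alternative run, and that of 21 in females in all but the length and GC offsets, which gave 13 (2 and 11). Calls at 28 against 6 months were less steady. In females the 11 calls became 0 in a fit of the 2 groups alone, 5 (3 and 2) with no filter, 5 (3 and 2) without the libraries against their sex label, 7 (6 and 1) without both sets of libraries in doubt, and 3 (2 and 1) with the offsets; the split was 9 and 4 with RLE factors, 8 and 4 without mitochondrial genes, and 10 and 0 without the libraries holding skin or marrow transcripts. In males the 9 calls became 21 (8 and 13) with limma-voom, 18 (7 and 11) without both sets, and 2 and 8 without mitochondrial genes. Over all genes, the main fit of this comparison called 1805 higher and 1647 lower in females. These became 2111 and 1503 with RLE factors, 2012 and 1419 without mitochondrial genes, and 905 and 1000 with the offsets. In males 1232 higher and 1708 lower became 1145 and 1810 without mitochondrial genes. At 28 against 20 months in males the 8 calls became 20 (10 and 10) with limma-voom, 15 (6 and 9) in a fit of the 2 groups alone, 16 (6 and 10) without both sets and 3 (2 and 1) with the offsets, and in females the 18 became 10 (9 and 1) with the offsets. At 12 against 6 months in males the 5 calls became 8 (2 and 6) with limma-voom, 2 (1 and 1) in a fit of the 2 groups alone and 3 (2 and 1) with the offsets, and in females the 0 became 2 lower with limma-voom. Between batches in females the 8 calls became 5 (1 and 4) in a fit of the 2 groups alone, 15 (1 and 14) without those holding skin or marrow transcripts and 17 (1 and 16) without both sets. Between batches in males the 0 became 2 (1 and 1) with DESeq2, 8 (2 and 6) with limma-voom, and 1 with a minimum count of 50, in a fit of the 2 groups alone, without the libraries against their sex label and without both sets. Between the sexes in batch 2 the 0 became 4 (2 and 2) with limma-voom, 3 (1 and 2) in a fit of the 2 groups alone and 1 lower without both sets, and the sex difference of the 28-month change 1 lower with DESeq2, 3 lower without those holding skin or marrow transcripts and 4 lower without both sets. For CaAKG 0 was called in every alternative run. Leaving out 1 library gave ranges of 0 to 3 (12 against 6 months, females), 2 to 6 (males), 16 to 21 and 25 to 31 (20 against 6 months, females and males), 4 to 13 and 5 to 12 (28 against 6 months), 14 to 18 and 5 to 11 (28 against 20 months), 7 to 12 and 0 to 1 (batches, females and males), and 0 throughout for CaAKG, the sexes in batch 2 and the sex difference; the lowest at 28 against 6 months was without 6-month female 2 and the lowest in 28-month males without male 14 of batch 1. Without both sets, 20 against 6 months gave 29 in males (13 and 16) and 17 in females (5 and 12). Signs turned with the offsets for Rb1cc1 (-0.18 in males and -0.050 in females at 20 against 6 months; 0.029 and 0.094 at 28 against 20 months), Atg2a (-0.28 and 0.063 in males), Wipi2 (0.047 in males), Atg12 and Ctsb (-0.23 and -0.25 in females) and Ulk2 (0.052 in females at 28 against 20 months), and for Ctsk between batches in females without those holding skin or marrow transcripts (0.24) and without both sets (0.25); the cause was not tested. The replicate numbers share only a number: with the replicate block, 12 against 6 months gave 1 lower in females and 2 and 4 in males, 20 against 6 months 5 and 12 in females and 12 and 12 in males, and CaAKG and the sexes in batch 2 0 each. No paired analysis was possible for the other comparisons because their groups share no replicate numbers. Read sharing limits Vcp, Map1lc3b, Sqstm1, Bnip3 and the others named with it, and depth, at 19460400 expected counts in the shallowest library, limits the lowest genes most.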
